A study of Rattus norvegicus and Mus musculus with 24 samples.

Results

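The genes described here are 10 members of the inflammasome and pyroptosis pathway together with galectin-3: the receptors TLR2 and TLR4, the sensor NLRP3, the adaptor PYCARD, the caspases CASP1 and CASP4, the pore protein GSDMD, the cytokines IL1B and IL18, and LGALS3. They were taken by name from the expression tables of a mouse and a rat model of cystinosis and are 10 of the 18043 gene symbols found in either table. All 10 were found in the rat table of 14931 symbols and 9 in the mouse table of 17376 symbols, so CASP4 was not analysed here in the mouse. Both tables carry human symbols, and the member names below follow them.

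An inflammasome is a protein complex that forms in the cytosol after a sensor such as NLRP3 detects damage or infection. The adaptor ASC, encoded by PYCARD, links the sensor to caspase-1, which cleaves the precursors of the cytokines IL-1 beta and IL-18 and also gasdermin D, whose free part opens pores in the membrane and causes the lytic cell death called pyroptosis. Toll-like receptors at the cell surface act upstream through NF-κB, which raises the transcription of NLRP3 and IL1B, while galectin-3 is a sugar-binding protein made by macrophages and injured tubules that also gathers on damaged lysosomes. In the kidney these genes are known mainly from macrophages and dendritic cells, with IL18 and LGALS3 also made by tubular epithelium.

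Bulk mRNA was sequenced from 4 Ctns KO and 4 WT mice of the C57BL/6 background and from 8 Ctns KO and 8 WT rats of the Sprague-Dawley background, 1 library per animal. Ctns encodes cystinosin, the lysosomal cystine exporter lost in cystinosis, and the WT animals were littermates of the knockout lines. KO was the only difference stated between the groups of a species, with no treatment in either. The tissue is given as kidney cortex in one place and as microdissected proximal tubules in another. Mice of 24 weeks are named for a transcriptome of tubule segments, whereas no age is given for the cortex libraries or for the rats, and the rat allele is not given in the sources used here. The reporting summary gives all mice as female, while the methods say so for cell cultures and mechanistic work. The sex of the sequenced rats is not given. The rats carry numbers 17 to 32, with 4 KO and 4 WT animals among numbers 17 to 24 and again among 25 to 32. Nothing states what the number ranges mark, so they are called ranges here, and the ranges and any unstated difference between them cannot be told apart.

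Library totals ran from 19309449 to 44449859 reads in mice and from 24684097 to 40629873 in rats. CTNS, the deleted gene, had a scaled value of 0.319 to 0.342 in KO mice and 0.824 to 1.03 in WT mice, with no overlap. In rats CTNS was 16.8 to 22.2 CPM in KO and 19.2 to 27.8 CPM in WT, which overlapped, and the fitted difference was past the threshold in rats 25 to 32 (log2 fold change -0.32 ± 0.10 SE, edgeR adjusted p = 0.0111) but not in rats 17 to 24 (-0.12 ± 0.10 SE, edgeR adjusted p = 0.599). Marker lists of the thick ascending limb, collecting duct and endothelium were present in all libraries beside those of the proximal tubule, so the libraries held more than proximal tubule cells. In such bulk tissue, fewer cells of a type and less RNA per cell cannot be told apart.

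Promoters of 7 of the 10 members were found in the RefSeq rat table (build GRCr8): NLRP3, PYCARD, CASP1, IL1B, IL18, TLR2 and TLR4. The 250 bases before the start site are shown for the 3 of these with the largest changes that are described below, 5′ to 3′ on the gene's strand. Capitals mark matches to the NF-κB consensus and to GAGGAA, the core bound by the macrophage factor PU.1.
TLR2 (rat Tlr2, chr2:171504558-171504807, minus strand): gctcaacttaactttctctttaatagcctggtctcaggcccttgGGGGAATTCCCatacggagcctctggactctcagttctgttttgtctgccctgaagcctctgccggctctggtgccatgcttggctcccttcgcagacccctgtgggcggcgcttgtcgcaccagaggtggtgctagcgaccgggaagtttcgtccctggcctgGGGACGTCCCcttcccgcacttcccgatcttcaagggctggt
PYCARD (rat Pycard, chr1:192033420-192033669, minus strand): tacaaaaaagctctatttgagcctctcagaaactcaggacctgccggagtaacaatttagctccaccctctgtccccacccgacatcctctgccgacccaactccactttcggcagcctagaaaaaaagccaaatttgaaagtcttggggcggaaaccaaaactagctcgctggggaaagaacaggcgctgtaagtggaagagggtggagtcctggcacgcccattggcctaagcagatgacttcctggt
NLRP3 (rat Nlrp3, chr10:44827848-44828097, plus strand): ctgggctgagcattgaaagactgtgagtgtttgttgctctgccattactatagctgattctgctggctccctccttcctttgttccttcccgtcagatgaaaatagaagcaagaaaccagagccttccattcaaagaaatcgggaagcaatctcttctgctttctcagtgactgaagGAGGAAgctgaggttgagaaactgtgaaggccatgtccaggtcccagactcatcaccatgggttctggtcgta
The NF-κB consensus was found in 1 of the 7 promoters, that of TLR2, at bases -206 to -196, where overlapping matches run together, and at -42 to -33. It is held by 6.325% of the 33469 rat promoters of the same length. GAGGAA was found in 3 of 7 (NLRP3 at -73 to -68, CASP1 at -166 to -161 and TLR4 at -67 to -62 and at -55 to -50), against 23.34% of all promoters. The AP-1 sequence TGANTCA (6.34% of all promoters) and the E-box CACGTG (5.593%) were in 0 of the 7. Both strands were searched, no match of one motif overlapped a match of another, and a match in this window describes the letters only.

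Every member that could be tested had a higher mean fitted level in KO than in WT animals in both species. Few of these differences passed the test in mice or in rats 17 to 24, and most did in rats 25 to 32 and over all 16 rats. The direct test between the species called 0 of 9 members. LGALS3 and TLR2 rose in KO mice, 2 of the 9 members tested against 6.6% of all 13132 symbols tested that were higher in KO (limma on log2(scaled value + 0.01), Benjamini-Hochberg adjusted p under 0.05). In rats 25 to 32, 8 of the 10 members rose against 23.7% of 11839 symbols, the exceptions being IL18 and TLR4 (edgeR quasi-likelihood test, Benjamini-Hochberg adjusted p under 0.05). LGALS3, PYCARD and NLRP3 rose in rats 17 to 24, 3 of 10 against 5.05% of symbols. With all 16 rats in 1 fit without the range, 9 of 10 rose against 15.2% of 11584 symbols, with IL18 the exception. No member fell in any of these comparisons.

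The medians of the members' log2 fold changes were 0.32 in mice, 0.41 in rats 17 to 24 and 0.73 in rats 25 to 32, beside medians of 0.0098, -0.010 and -0.015 over all symbols tested. Every KO animal lay above every WT animal for 3 of 9 members in mice (9.26% of symbols tested), for 4 of 10 in rats 17 to 24 (7.93%), for 8 of 10 in rats 25 to 32 (20.3%) and for 3 of 10 over all 16 rats (3.89%). The 3 in mice were LGALS3, TLR2 and TLR4, and the 3 over all rats were LGALS3, PYCARD and NLRP3.

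**Figure D1:**
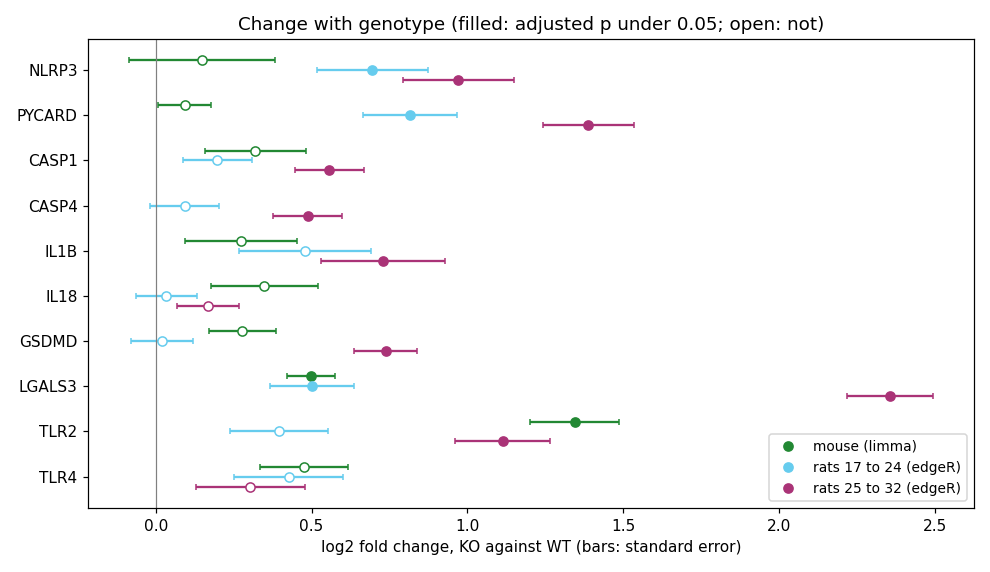
Log2 fold change of KO against WT (x axis) for each of the 10 genes in mice, rats 17 to 24 and rats 25 to 32, with bars of 1 standard error and filled points for an adjusted p under 0.05. LGALS3 in rats 25 to 32 lies furthest to the right at 2.36, TLR2 in mice reaches 1.34, and CASP4 has no mouse point.

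LGALS3, which encodes galectin-3, had the largest change of the 10 genes in rats 25 to 32 and was, with TLR2, one of the members that rose in mice. The scaled value, in which the upper quartile of a library is about 1, was 1.25, 1.55, 1.44 and 1.37 in the KO mice 3, 5, 6 and 8. In the WT mice 1, 2, 4 and 7 it was 1.07, 0.967, 1.01 and 0.902. All KO mice lay above all WT mice, with a 1.41-fold difference in level (log2 fold change 0.50 ± 0.08 SE, limma adjusted p = 0.00092). On the mouse genome Lgals3 lies at chr14:47367751-47386160 (mm10, plus strand, GENCODE vM21), and with 25.02 ± 2.016 RPKM (SD, n = 4 WT) it had the highest level per exon length of the 9 members measured in mice.

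In WT rats 17 to 24 LGALS3 was 20.6, 15.4, 19.2 and 17.7 CPM (reads scaled to library size with the TMM method) in animals 17, 19, 21 and 23, and in the KO animals 18, 20, 22 and 24 it was 23.9, 30.6, 21.5 and 26.96. These groups lay close together without overlap, 1.42-fold apart (log2 fold change 0.50 ± 0.13 SE, edgeR adjusted p = 0.0309). That call held in 3 of the 8 fits that each left out 1 rat and was lost without KO rats 20 or 24 or WT rats 19, 21 or 23, with an adjusted p of up to 0.111 by edgeR. In WT rats 25 to 32 LGALS3 was 13.8, 11.4, 14.1 and 16.9 CPM in animals 25, 27, 29 and 31, whereas the KO animals 26, 28, 30 and 32 had 68.8, 88.7, 66.1 and 63.8. The lowest of these KO rats was far above the highest WT rat of either range, and the difference was 5.12-fold (log2 fold change 2.36 ± 0.14 SE, edgeR adjusted p = 1.61e-09). The difference between the ranges in the KO effect was itself past the threshold (1.85 ± 0.19 SE on the log2 scale, edgeR adjusted p = 4.05e-05), with 3 of the 10 members called in this test (LGALS3, GSDMD and TLR2) against 14.7% of symbols in either direction. Of 11839 symbols tested, 841 were called in the direction of these 3 members, a higher log2 fold change in rats 25 to 32.

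**Figure D2:**
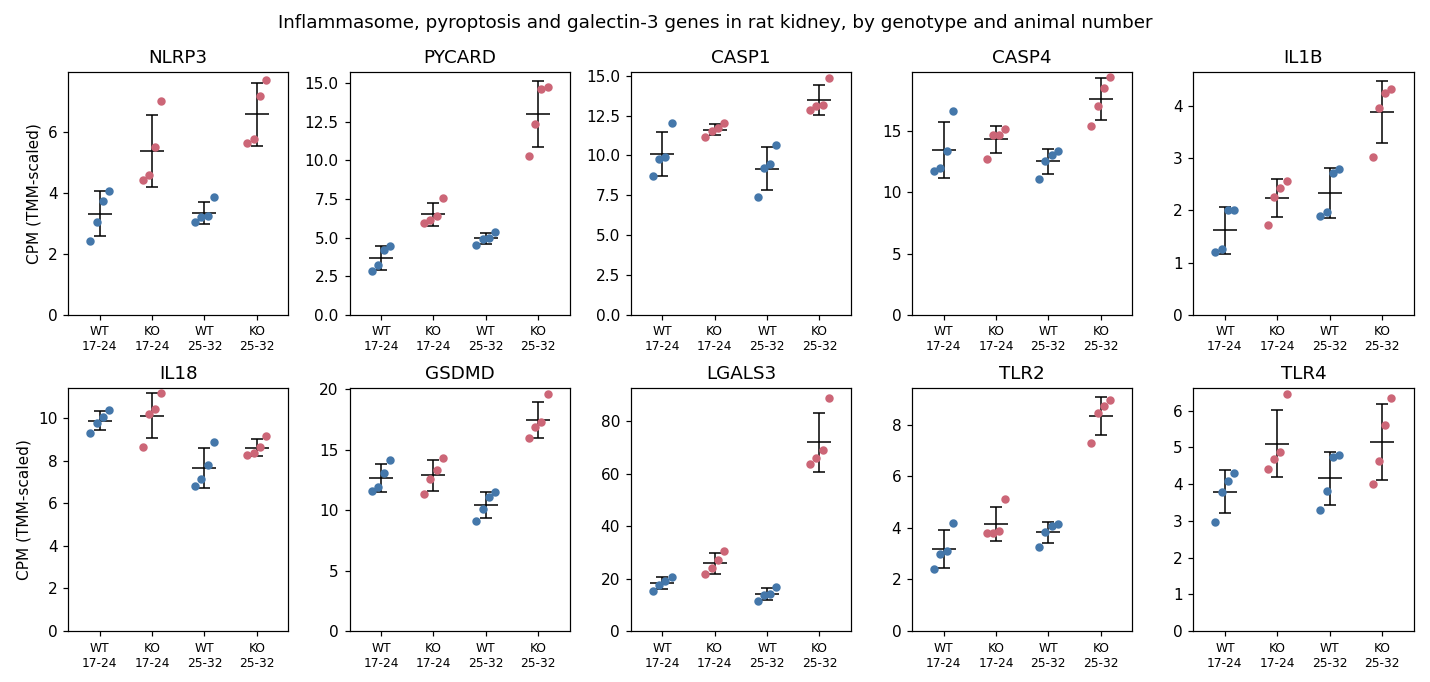
TMM-scaled CPM of the 10 genes in each of the 16 rats (points), by genotype and number range, with the group mean and SD (n = 4) as black bars and y axes from 0. LGALS3 lies at 63.8 to 88.7 CPM in KO rats 25 to 32 and at 11.4 to 30.6 CPM in the other groups, while IL18 overlaps between genotypes in both ranges.

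Other galectin genes also changed. Galectin-1, encoded by LGALS1, rose by 0.72 ± 0.07 SE on the log2 scale in mice (limma adjusted p = 2.1e-05) and by 0.52 ± 0.10 SE in rats 25 to 32 (edgeR adjusted p = 0.00042). LGALS3BP, a secreted glycoprotein that binds galectin-3, rose in mice (0.70 ± 0.12 SE, limma adjusted p = 0.0035), in rats 17 to 24 (0.79 ± 0.17 SE, edgeR adjusted p = 0.0092) and in rats 25 to 32 (1.56 ± 0.17 SE, edgeR adjusted p = 2.65e-06). In rats 25 to 32 LGALS9 rose by 0.81 ± 0.17 SE (edgeR adjusted p = 0.0011), and LGALS8 fell by 0.58 on the log2 scale (edgeR adjusted p = 1.03e-05), as did LGALSL by 0.40 (edgeR adjusted p = 0.00021). Of the 6 symbols tested in the list of galectins and their binding partner, 2 rose and 0 fell in mice (LGALS1 and LGALS3BP), 1 rose in rats 17 to 24 (LGALS3BP), and 3 rose and 2 fell in rats 25 to 32. Over all symbols tested in rats 25 to 32, 5915 of 11839 were called, of which 2810 were higher in KO.

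The symbols whose profile over the 16 rats was most like that of LGALS3, by the root mean square difference of centred log2 CPM, were S100A10 (0.153), PHLDA3 (0.191), ADAM8 (0.221), TRIB3 (0.226) and ANXA2P2 (0.229), of 11583 symbols ranked. S100A10 encodes the annexin A2 partner p11, PHLDA3 a p53 target, ADAM8 a membrane metalloprotease and TRIB3 a stress-induced pseudokinase. The rodent gene counted under ANXA2P2, the symbol of a human annexin A2 pseudogene, is uncertain. All points come from the same 4 groups of rats, so likeness here is a description of these libraries. Among the other 9 members PYCARD stood closest to LGALS3, at rank 125 (0.443), followed by TLR2 at rank 340 (0.530), and IL18 stood furthest at rank 4778 (0.906).

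TLR2, the receptor for bacterial lipoproteins, had the largest change of the members in mice. Its scaled value was 0.175, 0.166, 0.208 and 0.140 in KO mice 3, 5, 6 and 8 against 0.0530, 0.0630, 0.0545 and 0.0761 in WT mice 1, 2, 4 and 7, without overlap. These values stand on 167, 216, 330 and 234 reads in KO and on 83, 57, 79 and 158 reads in WT. The difference was 2.54-fold on the log2(value + 0.01) scale, which understates changes at low levels (log2 fold change 1.34 ± 0.14 SE, limma adjusted p = 5.86e-05). Tlr2 lies at chr3:83836272-83841767 on the minus strand of mm10 and had 0.956 RPKM in WT mice.

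TLR2 in rats 17 to 24 was 3.80, 3.80, 5.14 and 3.89 CPM in KO and 4.19, 3.01, 2.40 and 3.11 CPM in WT, and the groups overlapped. The fitted log2 fold change was 0.40 ± 0.16 SE there (edgeR adjusted p = 0.158), and without WT rat 17, the highest of its group, it was 0.55 with an edgeR adjusted p of 0.0364. Among rats 25 to 32 all KO animals (7.28, 8.72, 8.45 and 8.94 CPM) lay above all WT animals (4.09, 4.14, 3.84 and 3.26 CPM), a rise of 2.16-fold (log2 fold change 1.11 ± 0.15 SE, edgeR adjusted p = 1.33e-05). The TLR2 promoter with its 2 NF-κB stretches is printed above. The TLR2 effect was larger in the second range by 0.72 ± 0.22 SE on the log2 scale (edgeR adjusted p = 0.0356). This difference held in 7 of 16 fits that each left out 1 rat, with an edgeR adjusted p of up to 0.0766 without KO rats 18, 20, 24, 28 or 32 or WT rats 17, 19, 29 or 31.

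TLR4, the receptor for lipopolysaccharide, had smaller differences. In mice its scaled value was 0.106 to 0.130 in KO and 0.0607 to 0.101 in WT, without overlap, yet the limma adjusted p was 0.0517 (log2 fold change 0.48 ± 0.14 SE). It passed the threshold with a pseudocount of 0.1 (limma adjusted p = 0.0416) or 1 (limma adjusted p = 0.0372), with DESeq2 on recovered reads (adjusted p = 0.0493) and without WT mouse 7 (limma adjusted p = 0.0217). In rats TLR4 was 4.41 to 6.44 CPM in KO against 2.98 to 4.31 CPM in WT among numbers 17 to 24, and 4.01 to 6.36 against 3.30 to 4.80 CPM among numbers 25 to 32. Neither range passed the test (edgeR adjusted p = 0.171 and 0.155), although the KO rats 17 to 24 all lay above their WT rats. Over all 16 rats the log2 fold change was 0.37 ± 0.12 SE (edgeR adjusted p = 0.0365), a call that held in 9 of 16 fits with 1 rat left out and was lost without KO rats 22, 26 or 30 or WT rats 21, 23, 29 or 31 (edgeR adjusted p of up to 0.0813). In the mouse Tlr4 spans chr4:66827584-66930284 (mm10, plus strand).

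**Figure D3:**
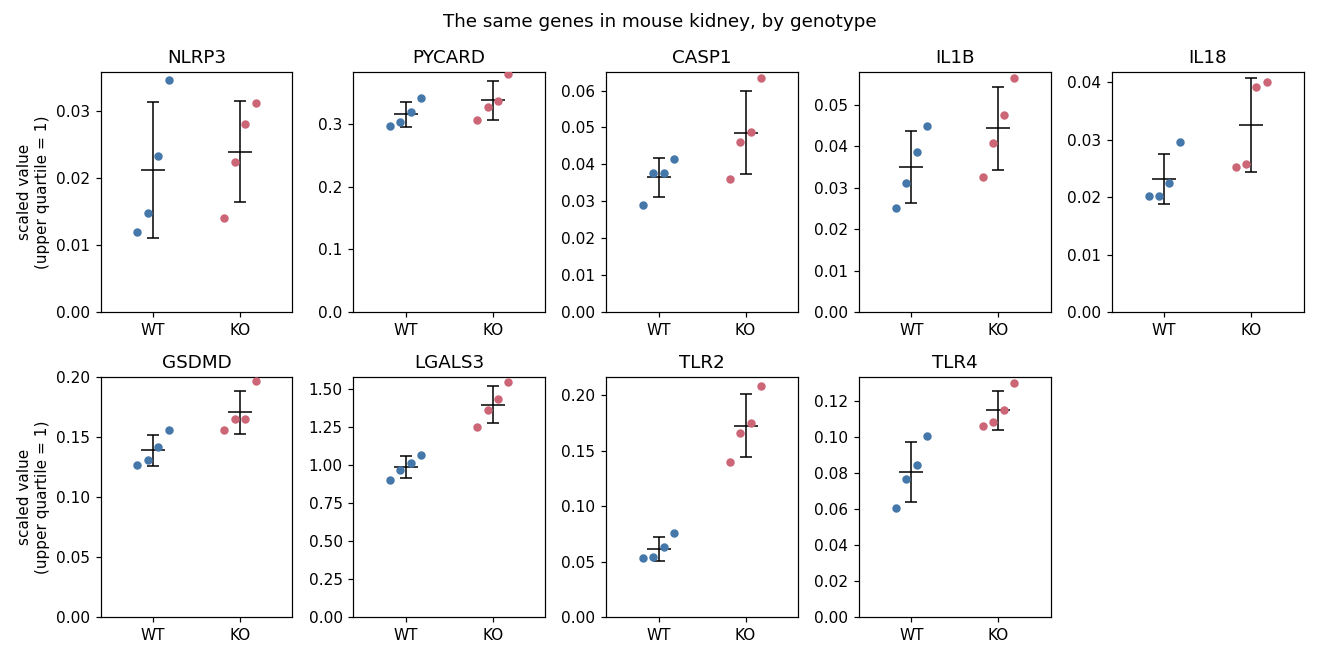
Scaled value of 9 of the genes in each of the 4 WT and 4 KO mice (points), with the group mean and SD as black bars and y axes from 0, where 1 is about the upper quartile of a library. KO and WT separate fully for LGALS3, TLR2 and TLR4 and overlap for the other 6 genes.

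Among the other Toll-like receptors and their signalling proteins, 3 of 18 symbols tested rose in mice: TLR8, a receptor for RNA (log2 fold change 0.80 ± 0.21 SE), LBP, the lipopolysaccharide carrier (0.56 ± 0.13 SE), and TLR3, the receptor for double-stranded RNA (0.31 ± 0.08 SE; limma adjusted p = 0.0285, 0.0165 and 0.0238). In rats 25 to 32, 9 of 17 rose and 3 fell, among them LBP (1.499 ± 0.20 SE, edgeR adjusted p = 1.4e-05) and TLR1, the partner of TLR2 (1.46 ± 0.40 SE, edgeR adjusted p = 0.0059). The inhibitory kinase homologue IRAK3 (1.15 ± 0.13 SE, edgeR adjusted p = 2.54e-06) and the lipopolysaccharide co-receptor CD14 (1.12 ± 0.11 SE, edgeR adjusted p = 2.98e-07) also rose there. The adaptor TIRAP, the ligase TRAF6 and the kinase IRAK2 were the 3 that fell. The 3 of 17 that rose in rats 17 to 24 were TLR7, IRAK3 and IRAK4, and none fell.

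Genes of NF-κB and its targets rose in all 3 comparisons, 6 of 13 tested in mice, 7 of 14 in rats 17 to 24 and 11 of 14 in rats 25 to 32, and none fell. BIRC3, ICAM1, NFKB2, NFKBIZ and RELB passed the test in each of the 3. NFKBIZ, a nuclear regulator induced by Toll-like receptors and IL-1, rose by 0.49 ± 0.10 SE in mice (limma adjusted p = 0.0064), 0.49 ± 0.13 SE in rats 17 to 24 (edgeR adjusted p = 0.0239) and 1.46 ± 0.13 SE in rats 25 to 32 (edgeR adjusted p = 1.17e-07). The adhesion molecule ICAM1 rose by 0.46 ± 0.09 SE, 0.44 ± 0.08 SE and 0.73 ± 0.08 SE in the same order (limma adjusted p = 0.0044, edgeR adjusted p = 0.0026 and 1.73e-06). The monocyte chemokine CCL2 was called in rats 25 to 32 (1.89 ± 0.45 SE, edgeR adjusted p = 0.0025) and not in rats 17 to 24, which does not show that its change differed between the ranges. In mice CCL2 was not tested.

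PYCARD, the adaptor ASC, had the largest change of the 10 genes in rats 17 to 24 and the second largest, after LGALS3, in rats 25 to 32. In the first range it was 6.13, 7.56, 6.37 and 5.96 CPM in KO against 4.23, 4.48, 2.86 and 3.23 CPM in WT, without overlap. This 1.76-fold rise (log2 fold change 0.81 ± 0.15 SE, edgeR adjusted p = 0.0024) held in 8 of 8 fits that left out 1 rat. Among rats 25 to 32 the KO animals had 10.3, 14.6, 12.4 and 14.7 CPM and the WT animals 4.91, 4.52, 5.39 and 5.003 CPM. The rise was 2.62-fold (log2 fold change 1.39 ± 0.15 SE, edgeR adjusted p = 8.91e-07).

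In mice PYCARD differed little: the scaled value was 0.307, 0.378, 0.337 and 0.326 in KO and 0.341, 0.303, 0.297 and 0.319 in WT, and the groups overlapped (log2 fold change 0.09 ± 0.09 SE, limma adjusted p = 0.605). Each mouse library held 276 to 664 reads of Pycard (chr7:127989708-127993867, mm10, minus strand). The rat change exceeded the mouse change by 0.97 ± 0.30 SE on the log2 scale, with a limma adjusted p of 0.0913, and the difference of the PYCARD effect between the rat ranges was 0.57 ± 0.21 SE (edgeR adjusted p = 0.0717). The latter passed with DESeq2 (adjusted p = 0.0423), without KO rat 26 (edgeR adjusted p = 0.0309) and without WT rat 21 (edgeR adjusted p = 0.0406).

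NLRP3, the sensor itself, rose in both rat ranges. Its level was 4.44, 4.57, 7.01 and 5.50 CPM in KO and 3.74, 4.07, 2.43 and 3.05 CPM in WT among rats 17 to 24, and among rats 25 to 32 it was 5.79, 7.19, 7.71 and 5.63 CPM in KO and 3.20, 3.85, 3.24 and 3.04 CPM in WT. The highest WT rat of either range stayed below the lowest KO rat. The rises were 1.62-fold (log2 fold change 0.69 ± 0.18 SE, edgeR adjusted p = 0.0234) and 1.96-fold (0.97 ± 0.18 SE, edgeR adjusted p = 0.00025), and they did not differ detectably between the ranges (0.28 ± 0.25 SE, edgeR adjusted p = 0.47). The first held in 4 of 8 fits with 1 rat left out and was lost without KO rats 22 or 24 or WT rats 21 or 23 (edgeR adjusted p of up to 0.0921).

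In mice NLRP3 was the lowest of the 9 members, with 13 to 54 reads per library and 0.241 RPKM in WT (Nlrp3, chr11:59541568-59566956, mm10, plus strand). Its scaled value was 0.0141, 0.0280, 0.0312 and 0.0223 in KO and 0.0346, 0.0148, 0.0120 and 0.0233 in WT. The groups overlapped widely, and the difference did not pass the test (log2 fold change 0.15 ± 0.23 SE, limma adjusted p = 0.79).

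Other inflammasome sensors and their partners changed in part. In mice 3 of 15 tested rose: the channel PANX1 (log2 fold change 1.06 ± 0.16 SE, limma adjusted p = 0.00077), NLRC5, known as a regulator of MHC class I genes (0.60 ± 0.15 SE, limma adjusted p = 0.0211), and PSTPIP1, a pyrin-binding protein (0.43 ± 0.13 SE, limma adjusted p = 0.04997). The epithelial sensor NLRP6 fell by 0.57 on the log2 scale in mice (limma adjusted p = 0.00048). In rats 25 to 32, 7 of 13 rose and 2 fell: PSTPIP1 (1.35 ± 0.24 SE, edgeR adjusted p = 0.00023), the flagellin receptor NAIP (1.18 ± 0.30 SE, edgeR adjusted p = 0.0034), the DNA sensor AIM2 (0.85 ± 0.30 SE, edgeR adjusted p = 0.0249), NLRC4, NLRP1, P2RX4 and MEFV rose. The NLRP3 deubiquitinase BRCC3 (-0.74 ± 0.13 SE, edgeR adjusted p = 0.00022) and the NLRP3-binding kinase NEK7 fell. Rodents have several Naip and Nlrp1 genes under these symbols, so which copy was counted is uncertain. Among rats 17 to 24, 2 of 13 rose (NLRP1 and the ATP-gated channel P2RX4). For PANX1 the change differed between the species (rat minus mouse -0.93 ± 0.23 SE, limma adjusted p = 0.0344).

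CASP1, the protease of the inflammasome, rose in rats 25 to 32, from 9.19, 7.37, 10.7 and 9.45 CPM in WT to 13.1, 13.1, 14.9 and 12.8 CPM in KO. The groups did not overlap, and the rise was 1.47-fold (log2 fold change 0.56 ± 0.11 SE, edgeR adjusted p = 0.00054). KO rats 17 to 24 ranged from 11.2 to 12.01 CPM, within the 8.73 to 12.03 CPM of their WT rats (0.20 ± 0.11 SE, edgeR adjusted p = 0.361). In mice, where Casp1 lies at chr9:5298517-5307265 (mm10, plus strand) and had 26 to 100 reads per library, the scaled value was 0.0360 to 0.0633 in KO and 0.0290 to 0.0415 in WT (0.32 ± 0.16 SE, limma adjusted p = 0.28).

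CASP4, which senses cytosolic lipopolysaccharide and cleaves gasdermin D directly, also rose in rats 25 to 32. It was 19.4, 15.5, 18.5 and 17.1 CPM in KO rats 25 to 32 and 13.4, 13.03, 11.1 and 12.6 CPM in the WT rats of that range, a rise of 1.40-fold without overlap (log2 fold change 0.49 ± 0.11 SE, edgeR adjusted p = 0.0014). The groups of rats 17 to 24 overlapped, at 12.8 to 15.2 CPM in KO and 11.7 to 16.7 CPM in WT (0.09 ± 0.11 SE, edgeR adjusted p = 0.748). The call over all 16 rats (0.30 ± 0.09 SE, edgeR adjusted p = 0.0253) was lost without KO rat 26 (edgeR adjusted p = 0.0561) or KO rat 30 (edgeR adjusted p = 0.0574). The mouse genes Casp1 and Casp4 are neighbours on the same strand, Casp4 at chr9:5308828-5336783.

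GSDMD, the pore-forming substrate of both caspases, separated the rat ranges most clearly after LGALS3. Among rats 17 to 24 it was 11.3, 14.3, 13.3 and 12.6 CPM in KO and 11.96, 14.2, 13.1 and 11.6 CPM in WT, with complete overlap (log2 fold change 0.02 ± 0.10 SE, edgeR adjusted p = 0.962). Among rats 25 to 32 it was 16.02, 19.6, 17.3 and 16.9 CPM in KO and 11.1, 9.10, 10.1 and 11.5 CPM in WT. There all KO animals lay above all WT animals, 1.67-fold higher (0.74 ± 0.10 SE, edgeR adjusted p = 1.34e-05). The difference between ranges was 0.72 ± 0.14 SE (edgeR adjusted p = 0.0039) and held in 16 of 16 fits with 1 rat left out. Both genotypes entered it: the mean rose from 12.9 to 17.5 CPM in KO and fell from 12.7 to 10.5 CPM in WT. The WT difference alone was -0.28 ± 0.10 SE (edgeR adjusted p = 0.0537). In mice Gsdmd (chr15:75862327-75867408, mm10, plus strand) had a scaled value of 0.156 to 0.197 in KO and 0.127 to 0.156 in WT (0.28 ± 0.11 SE, limma adjusted p = 0.142).

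Among other caspases, gasdermins and their regulators, 1 of 10 tested rose in mice, CASP12, a caspase linked to the endoplasmic reticulum (log2 fold change 0.56 ± 0.14 SE, limma adjusted p = 0.0272). In rats 25 to 32, 5 of 8 rose, among them CASP12 (1.67 ± 0.20 SE, edgeR adjusted p = 2.94e-06), the guanylate-binding protein GBP5 (0.90 ± 0.17 SE, edgeR adjusted p = 0.00035), the apoptotic initiator CASP8 (0.46 ± 0.08 SE, edgeR adjusted p = 0.00024), and NINJ1, which ruptures the plasma membrane late in lytic death. Of these 8, edgeR called 0 in rats 17 to 24, where 2 had an unadjusted p under 0.05, DESeq2 called 2 (CASP12 and GBP5) and limma-voom called 1 (GBP5). For CASP12 and CASP8 the difference between the ranges passed the test (edgeR adjusted p = 0.0237 and 0.0238).

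Of the cytokines of the pathway, IL1B rose in rats 25 to 32, with 3.02, 3.95, 4.24 and 4.33 CPM in KO and 2.72, 1.96, 2.79 and 1.89 CPM in WT, without overlap (1.66-fold, log2 fold change 0.73 ± 0.20 SE, edgeR adjusted p = 0.0058). At 1.73 to 2.56 CPM in KO and 1.20 to 2.01 CPM in WT it did not pass in rats 17 to 24 (0.48 ± 0.21 SE, edgeR adjusted p = 0.216). IL1B had the fewest reads of the members in the rat, 39 to 138 per library. Over all 16 rats the log2 fold change was 0.63 ± 0.22 SE (edgeR adjusted p = 0.0377). That call held in 6 of 16 fits with 1 rat left out and was lost without KO rats 26, 28, 30 or 32 or WT rats 17, 19, 21, 23, 27 or 31 (edgeR adjusted p of up to 0.0834). In mice Il1b (chr2:129364570-129371139, mm10, minus strand) had 28 to 89 reads per library and overlapping groups (0.27 ± 0.18 SE, limma adjusted p = 0.423).

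IL18 was the member with the smallest difference over all 16 rats (log2 fold change 0.10 ± 0.10 SE, edgeR adjusted p = 0.511). It was 10.2, 11.2, 8.66 and 10.4 CPM in KO and 10.4, 10.1, 9.32 and 9.76 CPM in WT among rats 17 to 24, and 8.27, 8.38, 8.66 and 9.15 CPM in KO and 7.77, 6.80, 7.12 and 8.89 CPM in WT among rats 25 to 32. Genotypes overlapped in both ranges (log2 fold change 0.03 ± 0.10 SE and 0.17 ± 0.10 SE, edgeR adjusted p = 0.917 and 0.172). Without WT rat 31 the second had an edgeR adjusted p of 0.0342. Between the WT rats of the ranges, IL18 was the member called, lower by 0.37 ± 0.10 SE in rats 25 to 32 (edgeR adjusted p = 0.0129), which made 1 of 10 members against 21.1% of symbols in either direction. DESeq2 called 4 members there. It added GSDMD and LGALS3, which were lower in rats 25 to 32 (-0.29 and -0.38, DESeq2 adjusted p = 0.0328 and 0.0371). It also added PYCARD, which was higher there (0.42, DESeq2 adjusted p = 0.0398). In mice Il18 (chr9:50554827-50581840, mm10, plus strand) was 0.0253 to 0.0400 in KO and 0.0202 to 0.0295 in WT as a scaled value (0.35 ± 0.17 SE, limma adjusted p = 0.262).

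Of the other IL-1 family genes the receptor antagonist IL1RN had the largest change, rising by 0.996 ± 0.24 SE on the log2 scale in mice (limma adjusted p = 0.0173), 1.18 ± 0.20 SE in rats 17 to 24 (edgeR adjusted p = 0.0012) and 1.79 ± 0.19 SE in rats 25 to 32 (edgeR adjusted p = 8.07e-07). IL1RL1, the receptor for IL-33, rose in both rat ranges (0.96 ± 0.20 SE and 1.74 ± 0.21 SE, edgeR adjusted p = 0.0061 and 3.79e-06). The IL-18 receptor IL18R1 (1.25 ± 0.28 SE, edgeR adjusted p = 0.0012) and the IL-18 decoy IL18BP (0.72 ± 0.13 SE, edgeR adjusted p = 0.00018) rose in rats 25 to 32. The alarmin IL33 rose in mice (0.51 ± 0.09 SE, limma adjusted p = 0.0034) and fell by 0.44 in rats 25 to 32 (edgeR adjusted p = 0.0004). Its change differed between the species (rat minus mouse -0.79 ± 0.11 SE, limma adjusted p = 0.00015). In counts, 2 of 9 tested rose in mice, 2 of 8 in rats 17 to 24, and 4 of 8 rose and 2 fell in rats 25 to 32.

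**Figure D4:**
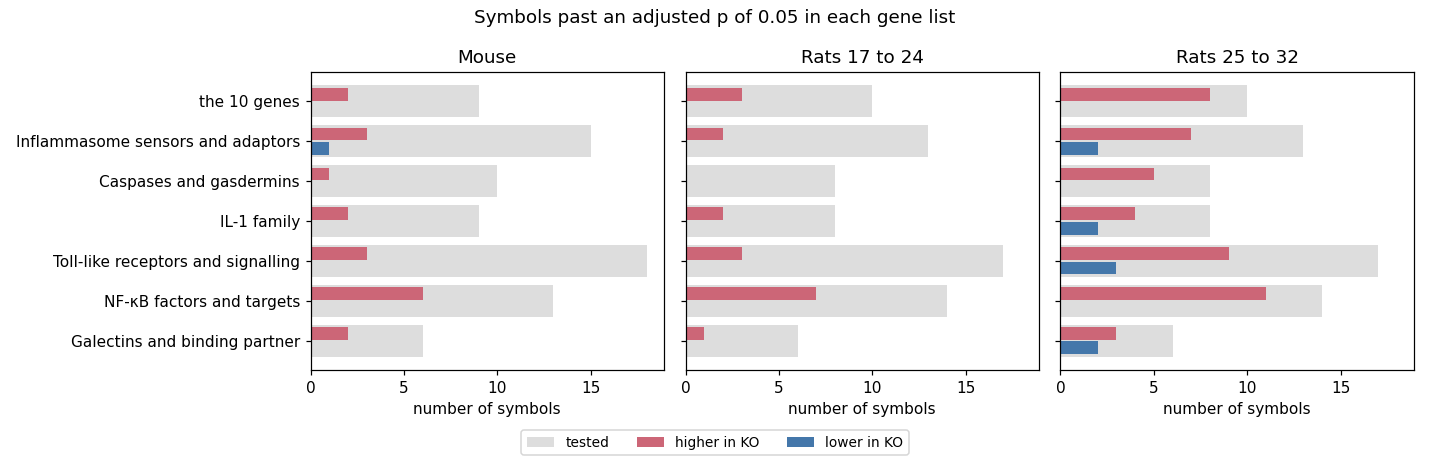
Number of symbols (x axis) tested (grey), higher in KO (red) and lower in KO (blue) at an adjusted p under 0.05, for the 10 genes and 6 related gene lists in mice, rats 17 to 24 and rats 25 to 32. The counts higher in KO are greater in rats 25 to 32 than in rats 17 to 24 for all 7 lists, reaching 8 of 10 for the genes described here and 11 of 14 for NF-κB factors and targets. The share over all symbols tested is also greater there, 23.7% against 5.05% in rats 17 to 24, and is 6.6% in mice.

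Over the 6 related lists together, 17 of 71 symbols tested rose and 1 fell in mice, 15 of 66 rose and 0 fell in rats 17 to 24, and 39 of 66 rose and 9 fell in rats 25 to 32. Their median log2 fold changes were 0.19, 0.30 and 0.44. Over all symbols tested in mice, 1180 of 13132 were called, 867 of them higher in KO. In rats 17 to 24 it was 824 of 11839, 598 of them higher. In rats 25 to 32 it was 5915 of 11839, 2810 of them higher. These totals stand beside the counts of each related list above as well.

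The change of the 9 members shared by both tables was compared between the species. By limma, 0 of 9 members differed at an adjusted p under 0.05, against 1.99% of 10571 symbols, and 3 had an unadjusted p under 0.05, while edgeR on reads also called 0. The largest differences (rat minus mouse) were 0.97 ± 0.30 SE for PYCARD, 0.94 ± 0.41 SE for LGALS3 and 0.64 ± 0.25 SE for NLRP3, and TLR2 differed in the other direction (-0.62 ± 0.30 SE, limma adjusted p = 0.314). The spread over the rats of the pooled ranges enters these errors.

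Markers of macrophages rose in KO animals too. All 14 tested of 15 macrophage markers listed rose in mice, where the summed level was 280 to 341 CPM in KO and 193 to 204 CPM in WT. Of 13 tested in rats, 7 rose in numbers 17 to 24 (270 to 298 CPM in KO, 168 to 224 CPM in WT), and 12 rose in numbers 25 to 32 (502 to 713 CPM in KO, 248 to 313 CPM in WT). The median log2 fold change of the tested markers was 0.70 in mice, 0.55 in rats 17 to 24 and 1.22 in rats 25 to 32. The macrophage receptor CSF1R rose by 0.33 ± 0.09 SE in mice, 0.55 ± 0.07 SE in rats 17 to 24 and 0.89 ± 0.07 SE in rats 25 to 32. Its rise was below the list median in mice and in rats 25 to 32. ADGRE1 rose in mice (0.85 ± 0.11 SE) and was called in neither rat range, and its change was lower in rats by the species test. Between the WT rats of the ranges, 6 of 13 macrophage markers were higher in rats 25 to 32 and 0 were lower. In that comparison edgeR called 0 of the 10 members higher and 1 lower, against 21.1% of symbols called in either direction. The fitted difference was above 0 for 5 of the 10, and 5 had an unadjusted p under 0.05 in either direction. DESeq2 called 4, with PYCARD higher in rats 25 to 32 (0.42, DESeq2 adjusted p = 0.0398). Of the lymphocyte markers tested, 0 of 9 were called in mice by limma (1 at an unadjusted p under 0.05, and 0 by edgeR or DESeq2 on recovered reads), 4 of 8 rose in rats 17 to 24 and 7 of 8 in rats 25 to 32. The 7 neutrophil markers summed to 2.36 to 3.61 CPM in mice. In rats 17 to 24 the sum was 18.5 to 43.7 CPM in KO and 22.6 to 40.4 CPM in WT. In rats 25 to 32 it was 11.3 to 19.8 CPM in KO and 18.8 to 22.8 CPM in WT. MPO and ELANE, which encode granule enzymes, were below 0.1 CPM in every library. Of the neutrophil list 4 were tested in rats 25 to 32, with a median log2 fold change of 0.68. Of these, CSF3R, the G-CSF receptor, rose there (0.78 ± 0.27 SE, edgeR adjusted p = 0.0257). The summed level of the list was not higher in KO in that range.

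Tubular markers differed between genotypes as well. The injury list rose in 4 of 8 symbols in mice, 5 of 8 in rats 17 to 24 and 8 of 8 in rats 25 to 32, and its summed level was 424 to 552 CPM in WT rats, 1127 to 1739 CPM in KO rats 17 to 24 and 3956 to 5919 CPM in KO rats 25 to 32. Proximal tubule markers fell in 2 of 8 symbols in rats 17 to 24 and 7 of 8 in rats 25 to 32, and 0 of 10 were called in mice by limma (2 at an unadjusted p under 0.05, 0 by edgeR and 3 by DESeq2, on recovered reads). Fibroblast markers rose in 4 of 7 symbols in mice, 3 of 7 in rats 17 to 24 and 6 of 7 in rats 25 to 32. Over all symbols tested, 6.6% were higher in KO in mice, 5.05% in rats 17 to 24 and 23.7% in rats 25 to 32. Calls in either direction numbered 824 of 11839 in rats 17 to 24 (598 higher) and 5915 of 11839 in rats 25 to 32 (2810 higher). The part of macrophages, neutrophils, lymphocytes, fibroblasts or tubular injury in the members' changes was not tested.

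**Figure D5:**
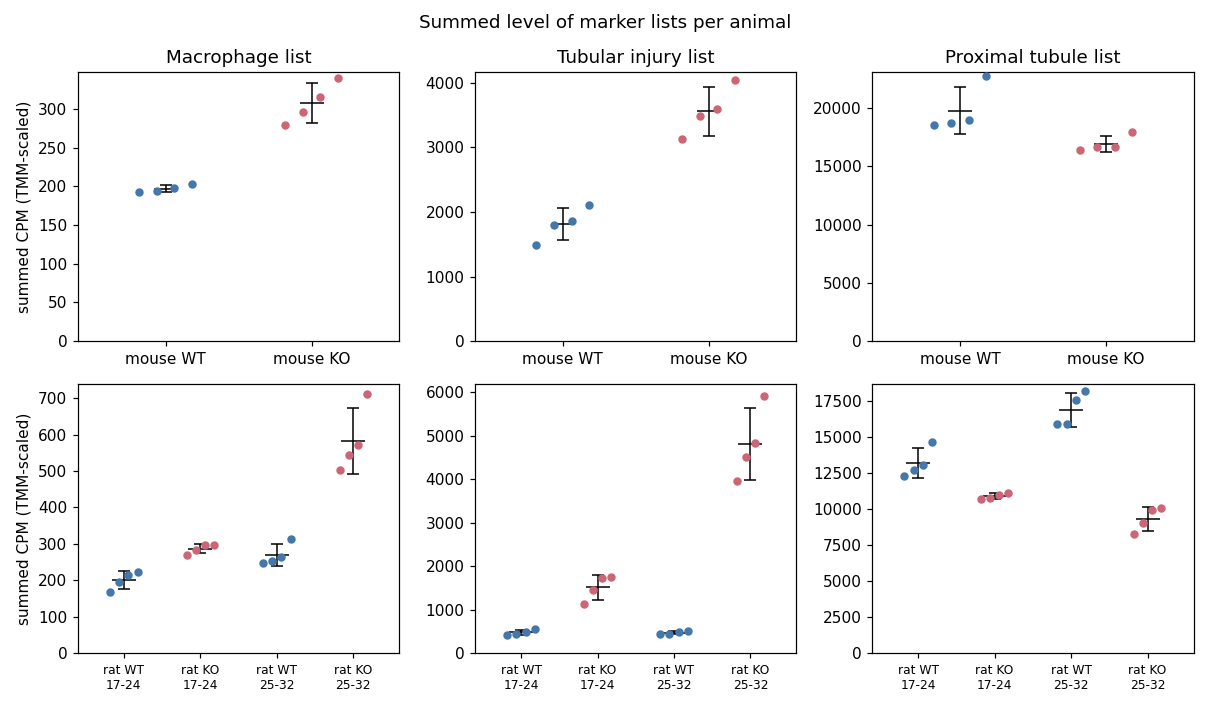
Summed TMM-scaled CPM of the macrophage, tubular injury and proximal tubule marker lists in each mouse (top) and rat (bottom), with the group mean and SD (n = 4) as black bars and y axes from 0. KO animals lie above WT animals for the macrophage and injury sums in mice and in each rat range, and below WT animals for the proximal tubule sum.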

How the data were processed

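Expression was read from 2 tables covering 8 mouse and 16 rat libraries, made with a stranded mRNA kit. Submitters' processing notes name bcl2fastq 2.20, STAR 2.7.3, DESeq2 1.24.0, R 3.6.1 and builds mm10 and rn5, with no roles, and the counting is not given in the sources used here. The mouse values the authors deposited are a normalized signal that behaves as reads with 0.5 added, over the upper quartile of that library with 0.5 added, which was worked out from the values, and whole reads were recovered for 99.0% of values (tolerance 0.01). The rat values the authors deposited are estimated counts that behave as reads with a constant fraction added, which was taken off before rounding to whole numbers (97.7% were whole). All members gave whole reads. Depth gave each member 13 reads or more per mouse and 39 or more per rat, and this limits counting error only, while differences between groups are limited by how many animals there were. Labels give each library a separate animal number, and no pair within a group agreed within counting error (the lowest chi-square was 8.60 per degree of freedom). Groups came from the genotype labels.

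Mouse values were tested with limma 3.58.1 (trend, robust) on log2(value + 0.01) for symbols with a mean of 0.01 or more. Rat reads were tested with edgeR 4.0.16 (quasi-likelihood, robust, TMM, filterByExpr) in a fit of 2 genotypes over all rats and a fit of 4 genotype and range groups, which gave the values by range, the difference of ranges and the WT comparison. Species differences used limma on log2(scaled value + 0.01) of both tables. The Benjamini-Hochberg adjustment ran over all symbols tested, with a threshold of 0.05, in R 4.3.3, and the scripts were tested on simulated data. CPM are TMM-scaled. RPKM use exon lengths from GENCODE vM21. Alternatives were other pseudocounts, filters and normalizations, DESeq2 1.42.0, limma-voom, edgeR on mouse reads and leaving out each animal. The 10 members and all lists were chosen with earlier results of these data known. All members were named, and from each related list up to 4 symbols per species past the threshold with the largest change, or those called in the same direction in both species. Others named for a range or a receptor were picked after their values were seen. The 5 symbols most like LGALS3 were also named. The values of 1 symbol of the related lists are not reported here, although the counts include it.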

Additional observations from a re-analysis of the deposited data

Results flagged for a closer look

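Of 78 groups of members' values examined, 3 had a highest animal set apart from the others by more than the limit of Dixon's test, a rate that chance alone gives in about 1 in 20 groups. CASP4 was 16.7 CPM in WT rat 17, while the other 7 WT rats had 11.1 to 13.4 CPM. TLR2 was 5.14 CPM in KO rat 22, while the other KO rats of numbers 17 to 24 had 3.80 to 3.89 CPM. CASP1 was 14.9 CPM in KO rat 30, while the other KO rats of numbers 25 to 32 had 12.8 to 13.1 CPM.

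The KO effect differed between rats 25 to 32 and rats 17 to 24 for LGALS3 (1.85 on the log2 scale, edgeR adjusted p = 4.05e-05), GSDMD (0.72, edgeR adjusted p = 0.0039) and TLR2 (0.72, edgeR adjusted p = 0.0356). In each of the 3 the effect, KO against WT within a range, was larger in rats 25 to 32. The WT levels of LGALS3 and GSDMD were themselves lower there (-0.38 ± 0.14 SE and -0.28 ± 0.10 SE, edgeR adjusted p = 0.061 and 0.0537).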

How the results depend on the processing

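The number of members called kept within 1.5 times its value under all alternatives run for mice (2 to 3), all rats (6 to 9), rats 25 to 32 (8 to 9) and the difference between ranges (2 to 4). In rats 17 to 24 it was 1 to 4 with an animal left out, with 1 without KO rat 24, WT rat 21 or WT rat 23. For the WT ranges it was 1 to 3 with an animal left out and 4 with DESeq2, and for the species difference a pseudocount of 1 gave 1 (NLRP3, 0.07 on the log2 scale, limma adjusted p = 0.0357). Signs turned only for small, uncalled differences: with a pseudocount of 1, the IL18 species difference was 0.0081, and with an animal left out the log2 values ran from -0.0020 to 0.34 (NLRP3, mice), -0.036 to 0.097 (GSDMD, rats 17 to 24), -0.017 to 0.10 (IL18, rats 17 to 24), -0.24 to 0.0062 (TLR4, difference between ranges), -0.16 to 0.017 (CASP4, WT ranges), -0.11 to 0.13 (NLRP3, WT ranges), -0.023 to 0.20 (CASP1, species) and -0.22 to 0.00026 (TLR4, species). The cause was not tested. No paired analysis was possible because the animal numbers are not shared between groups. Counting error is greatest for NLRP3, IL18, IL1B and CASP1 in the mouse, with 13 to 100 reads per library.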
